A study of Homo sapiens with 8 samples.

Results

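The hexosamine pathway turns fructose 6-phosphate, glutamine and acetyl-CoA into UDP-N-acetylglucosamine, the sugar donor for protein glycosylation and for hyaluronan. Hyaluronan is a long unbranched glycosaminoglycan that synthases in the plasma membrane build from UDP-N-acetylglucosamine and UDP-glucuronic acid. Keratinocytes make it, hold it at their surface through the receptor CD44 and break it down again.

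The genes described here were GFPT1, GFPT2, GNPNAT1, PGM3, UAP1 and UGDH (supply of the sugar donors), HAS2 and HAS3 (hyaluronan synthases), CD44 (receptor) and CEMIP (breakdown), 10 of the 17131 genes in the deposited table. They were picked by symbol with the difference in count between the library groups already known, so their differences are a description and carry no test. RNA was sequenced from 8 libraries, 4 titled M5_O5 and 4 titled M5, to ask which genes depend on the kinase TOPK. All came from wild-type HaCaT cells, a spontaneously immortalized human keratinocyte line, cultured in M5, a cocktail of 5 inflammatory cytokines used to model psoriatic keratinocytes, with or without the TOPK inhibitor OTS514. In the study's methods the cells received OTS514 at 10 nM for 12 h and then OTS514 with M5 at 10 ng/mL for another 24 h.

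The labels of the groups disagreed. By its title, M5_O5 would be M5 plus OTS514, but the treatment field of those 4 libraries says none was given, and that of the 4 M5 libraries names the TOPK inhibitor. Groups are therefore named by title, and each difference is given between titles without saying which cells received the drug. No library without M5 was analysed here, and HaCaT is a single immortalized line.

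The keratinocyte label was met. The 9 keratinocyte marker genes had a summed level of 18230 to 22011 TPM (transcript counts scaled by length and to a fixed sum per library) in M5_O5 and 20728 to 22459 TPM in M5. Of the 9, 0 were higher and 6 lower in M5_O5 at an adjusted p under 0.05, with a median log2 fold change of -0.29. Over all 12434 genes tested, 19.5% were higher and 17.6% lower. In the most abundant of 10 level bins of tested genes, which takes in the levels of these markers, 45.1% were lower. Endothelial markers summed to at most 0.16 TPM and melanocyte markers to at most 0.95 TPM in any library. Fibroblast markers summed to 10.3 to 10.8 TPM in M5_O5 and 13.1 to 15.4 TPM in M5, most of it COL1A1, with 1 of 3 tested markers past the threshold and lower in M5_O5. Immune markers summed to 45.4 to 54.8 TPM in M5_O5 and 50.1 to 53 TPM in M5, nearly all of it CD14, the single marker tested, which did not pass, and the leukocyte gene PTPRC was at 0 in every library. Total counts ranged from 13708055 to 16922693 per library. M5 replicate 1 was the shallowest library, and it was the M5 library nearest to the M5_O5 values for 5 of the 10 genes (GFPT2, HAS3, CD44, CEMIP and GNPNAT1). In bulk RNA, fewer cells expressing a gene and less of its RNA per cell cannot be told apart.

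Upstream sequence was taken from RefSeq (GRCh38.p14) for 9 of the 10 genes, which had 12 start sites in all. Those of 4 genes are shown: the paralogs GFPT1 and GFPT2, which perform the same reaction at very different levels, and HAS3 and CEMIP, the most abundant synthase and the gene of hyaluronan breakdown. Each run is the 250 bases upstream of the start site, 5′ to 3′ on the gene's strand, and capitals mark matches to the letters searched.
GFPT1, chr2:69387228-69387477, minus strand: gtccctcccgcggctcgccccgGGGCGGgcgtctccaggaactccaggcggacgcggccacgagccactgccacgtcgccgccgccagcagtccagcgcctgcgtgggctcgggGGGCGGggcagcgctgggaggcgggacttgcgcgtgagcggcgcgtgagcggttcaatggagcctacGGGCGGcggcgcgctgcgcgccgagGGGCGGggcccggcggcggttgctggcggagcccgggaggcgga
GFPT2, chr5:180353337-180353586, minus strand: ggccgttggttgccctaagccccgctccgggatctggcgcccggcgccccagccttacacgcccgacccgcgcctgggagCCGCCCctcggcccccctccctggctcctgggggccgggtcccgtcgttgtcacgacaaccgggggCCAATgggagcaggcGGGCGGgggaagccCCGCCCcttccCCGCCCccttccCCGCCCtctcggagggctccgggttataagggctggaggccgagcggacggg
HAS3, chr16:69107290-69107539, plus strand: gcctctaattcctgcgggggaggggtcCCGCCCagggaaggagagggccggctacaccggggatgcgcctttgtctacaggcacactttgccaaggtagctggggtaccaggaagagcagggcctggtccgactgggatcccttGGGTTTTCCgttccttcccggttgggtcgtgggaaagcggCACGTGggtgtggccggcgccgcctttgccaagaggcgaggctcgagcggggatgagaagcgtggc
CEMIP, chr15:80779120-80779369, plus strand: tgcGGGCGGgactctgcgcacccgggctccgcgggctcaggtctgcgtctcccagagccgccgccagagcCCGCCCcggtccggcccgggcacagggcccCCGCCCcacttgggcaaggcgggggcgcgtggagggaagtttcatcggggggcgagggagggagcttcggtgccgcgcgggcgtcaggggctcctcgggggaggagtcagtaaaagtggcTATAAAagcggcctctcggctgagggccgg

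These runs were searched on both strands for 8 sets of letters, and no match printed in capitals overlaps another. The GC box (GGGCGG) was found 4 times upstream of GFPT1, 5 times upstream of GFPT2, 3 times upstream of CEMIP and 1 time upstream of HAS3. It is a common string, held by 42.6% of the 35116 human promoters in the table. GFPT2 also holds a CCAAT box (CCAAT, in 32% of promoters), and GFPT1 holds none. CEMIP holds a TATA box (TATAAA, in 10.7%) at position -30 from the start site. HAS3 holds an E-box (CACGTG, in 6.34%) at -66 and the letters of an NF-kB pattern (GGNNTTTCC, in 5.48%) at -106. The letters searched for AP-1 (TGANTCA, in 6.57%), STAT (TTCNNNGAA, in 6.57%) and CRE (TGACGT, in 7.1%) were not in these 4 windows. A match is a run of letters and was not tested as a binding site.

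At the entry of the pathway, GFPT1 and GFPT2 encode the glutamine:fructose-6-phosphate amidotransferases, its rate-limiting step. GFPT2 showed the widest gap between the groups of the 10 genes, at a very low level. Its counts were 10, 10, 11 and 11 in M5_O5 replicates 1 to 4 and 18, 42, 42 and 40 in M5 replicates 1 to 4. The groups did not overlap, and M5 replicate 1 held fewer counts than the other M5 libraries. In CPM (counts scaled to library size, adjusted by TMM), the level was 0.615 ± 0.0434 (SD, n = 4) in M5_O5 and 2.33 ± 0.687 (SD, n = 4) in M5. The log2 fold change of M5_O5 over M5 was -1.92 (SE 0.27), a level 3.78-fold higher in M5, and it ranged from -2.10 to -1.83 as each library was left out. On log2(TPM + 0.1) it was -1.51, and on log2(TPM + 1), where a pseudocount near the gene's own level shrinks the difference, it was -0.72.

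GFPT1 was the main amidotransferase in every library. Its level was 110, 95.8, 92.4 and 112 CPM in M5_O5 and 133, 110, 122 and 118 CPM in M5, always in the order of replicates 1 to 4. The groups overlapped. The log2 fold change was -0.24 (SE 0.07), whereas the TPM means of 40.8 ± 4.99 and 41.3 ± 4.78 (SD, n = 4 each) differed by less than their spread. GFPT2 made up 0.523% to 0.7% of the counts of the pair in M5_O5 and 0.979% to 2.43% in M5. The mean GFPT2 share was 0.6% ± 0.0736 and 1.92% ± 0.645 (SD, n = 4 each).

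**Figure D1:**
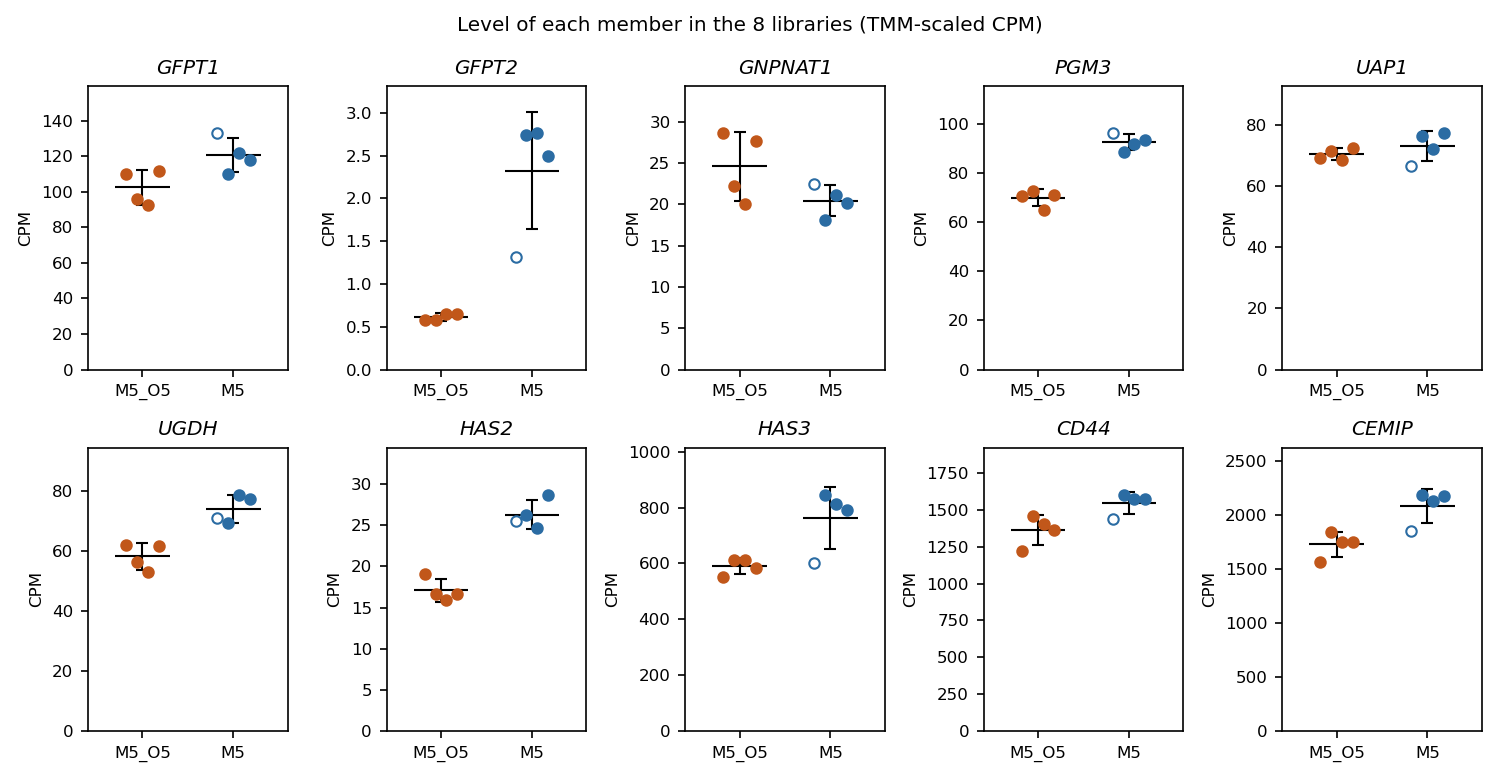
TMM-scaled CPM (y axis, from 0) of the 10 genes in the 4 M5_O5 and 4 M5 libraries. Points are libraries, the open point is M5 replicate 1, and lines with bars are means with SD. The groups do not overlap for 5 genes (GFPT2, PGM3, UGDH, HAS2 and CEMIP) and overlap for the other 5.

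The next enzymes did not differ alike. GNPNAT1 acetylates glucosamine 6-phosphate, PGM3 is the phosphoglucomutase that follows it, and UAP1 makes UDP-N-acetylglucosamine from the sugar phosphate. PGM3 was at 70.8, 72.8, 65 and 71.2 CPM in M5_O5 and at 96.2, 88.7, 92 and 93.6 CPM in M5. Every M5 library lay above every M5_O5 library, on the TPM scale as well. The log2 fold change was -0.40 (SE 0.06).

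GNPNAT1 was the only gene of the 10 with a higher mean CPM in M5_O5. Its level was 28.6, 22.2, 20 and 27.7 CPM in M5_O5 and 22.5, 18.1, 21.1 and 20.1 CPM in M5. M5_O5 replicates 2 and 3 sat among the M5 values, so the ranges overlapped, and the log2 fold change was 0.27 (SE 0.11). UAP1 was at 69.3, 71.4, 68.4 and 72.6 CPM in M5_O5 and at 66.5, 76.3, 72.3 and 77.3 CPM in M5. Its log2 fold change of -0.05 (SE 0.06) was smaller than its error, and it turned to 0.06 under scaling by library size alone and to 0.07 on log2(TPM + 1).

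UGDH oxidizes UDP-glucose to UDP-glucuronic acid, the other sugar of hyaluronan. It was at 61.9, 56.2, 52.8 and 61.6 CPM in M5_O5 and at 70.8, 69.1, 78.6 and 77.1 CPM in M5. The groups did not overlap in CPM, with a log2 fold change of -0.35 (SE 0.07). In TPM they overlapped, at 31.1 to 39 in M5_O5 against 35.9 to 42.9 in M5.

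Of the hyaluronan synthases, HAS3 carried nearly all the RNA and HAS2 had the wider gap. HAS2 was at 19.1, 16.7, 15.9 and 16.7 CPM in M5_O5 and at 25.5, 26.2, 24.7 and 28.7 CPM in M5. The groups lay apart, M5 replicate 1 included. The log2 fold change was -0.62 (SE 0.08), and it stayed between -0.68 and -0.44 over 18 alternative settings.

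HAS3 was at 552, 613, 611 and 583 CPM in M5_O5 and at 602, 846, 812 and 793 CPM in M5. M5 replicates 2 to 4 lay above all M5_O5 libraries, and M5 replicate 1 fell inside their range. On the TPM scale the groups were just apart, at 245 to 253 in M5_O5 and 255 to 308 in M5. The log2 fold change was -0.37 (SE 0.09), and -0.47 without M5 replicate 1. HAS3 held 96.7% to 97.5% of the counts of HAS2 and HAS3 in M5_O5 and 95.9% to 97.1% in M5. These ranges overlapped. HAS1, the other human synthase, was too low to test, at 0 to 2 counts per library and at 0 in all 4 M5 libraries.

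CD44 is the main hyaluronan receptor of keratinocytes. It was at 1223, 1459, 1405 and 1365 CPM in M5_O5 and at 1440, 1602, 1572 and 1573 CPM in M5. The groups overlapped between M5_O5 replicate 2 and M5 replicate 1, and the log2 fold change was -0.18 (SE 0.07). In TPM the means of 566 ± 54.6 and 565 ± 20.6 (SD, n = 4 each) showed no gap.

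CEMIP binds hyaluronan and takes part in its depolymerization. It was at 1566, 1845, 1745 and 1752 CPM in M5_O5 and at 1847, 2185, 2126 and 2169 CPM in M5. The groups were only just apart in CPM, since M5_O5 replicate 2 and M5 replicate 1 were nearly equal. On the TPM scale they were also apart, at 391 to 424 in M5_O5 and 441 to 466 in M5. The log2 fold change was -0.27 (SE 0.07), and -0.32 without M5 replicate 1.

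Over the 10 genes, 1 (GFPT2) was called lower in M5_O5, that is, past an adjusted p of 0.05 with at least a 2-fold drop, where 0.33% of the 12434 genes tested were called lower and 2.87% higher. At the adjusted p alone, 8 of the 10 were lower and 0 higher, against 17.6% and 19.5% of all tested genes. The groups did not overlap for 5 genes, all lower in M5_O5, against 15.8% of all tested genes that were lower without overlap and 17.8% that were higher without overlap. The median log2 fold change was -0.31, and 0.01 over all tested genes. These counts use the contrast on which the genes were picked, and nothing is read from them. On log2(TPM + 1) GFPT2 was short of 2-fold and 0 of the 10 were called. At the adjusted p, 6 to 8 of the 10 were lower as each library was left out, and 8 without M5 replicate 1, where GNPNAT1 also passed as higher.

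**Figure D2:**
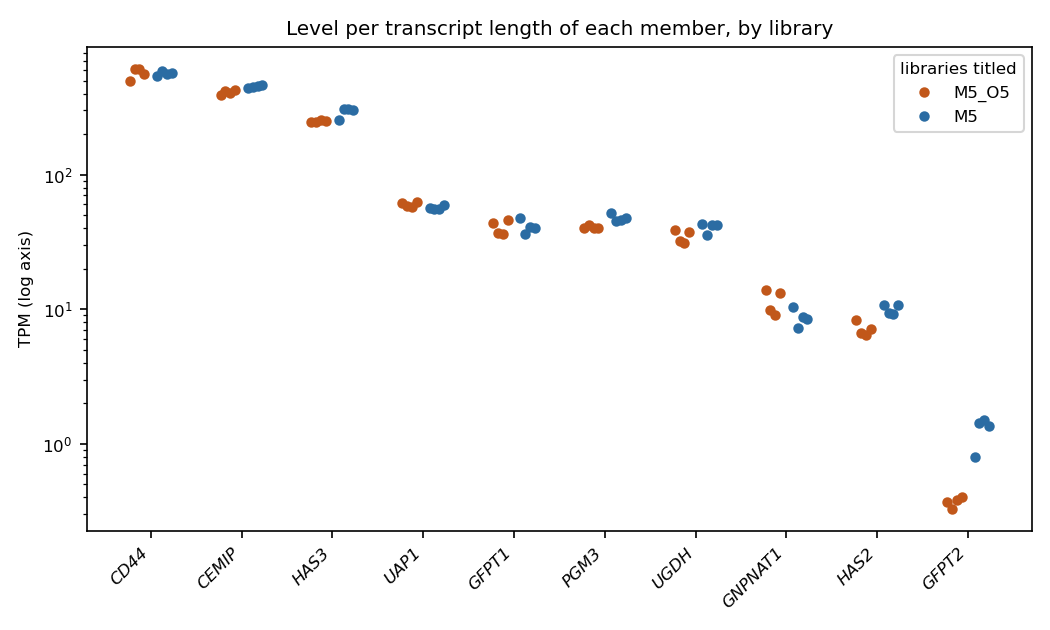
Level in TPM (y axis, log scale) of the 10 genes, ordered by their mean in M5_O5. Each point is a library, orange for M5_O5 and blue for M5. Levels run from 0.33 TPM for GFPT2 to 609 TPM for CD44, and the gap between the colours is widest for GFPT2.

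Levels between genes were compared in TPM, which accounts for transcript length. In M5_O5 the order of mean level was CD44 (566), CEMIP (410), HAS3 (249), UAP1 (59.9), GFPT1 (40.8), PGM3 (40.6), UGDH (35.1), GNPNAT1 (11.4), HAS2 (7.15) and GFPT2 (0.37). All neighbours were apart in their ranges except GFPT1 and PGM3, and GFPT1, at 36 to 46 TPM, also overlapped UGDH. In M5 the same 4 genes led, and HAS2 (10.1 TPM) stood above GNPNAT1 (8.69 TPM), although the ranges of that pair overlapped. GFPT1 also overlapped both PGM3 and UGDH there, while PGM3 and UGDH were apart from each other. The receptor, the breakdown gene and HAS3 thus stood above every enzyme of sugar supply in both groups.

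The direction of a difference went with the level of a gene across the whole table. When the tested genes were ordered by level and split into 10 equal bins, the median log2 fold change fell from 0.25 in the lowest bin to -0.15 in the highest, where 45.1% of genes were lower and 7.64% higher at the adjusted p. CD44, CEMIP and HAS3 belonged to that highest bin. The trend at their level was -0.19 for CD44, -0.20 for CEMIP and -0.17 for HAS3. With the trend removed, the log2 fold change was 0.01 for CD44, -0.07 for CEMIP and -0.20 for HAS3. The CD44 difference, at -0.18, was close in size to the trend at its level, and that of CEMIP, at -0.27, was larger. Whether the trend accounts for either difference was not tested. The trend was -0.08 at the level of PGM3, 0.04 at that of HAS2 and 0.22 at that of GFPT2. With it removed, 4 genes (GFPT2, HAS2, PGM3 and UGDH) were lower at the adjusted p. The genes were picked on this contrast, so that count is a description and carries no test.

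**Figure D3:**
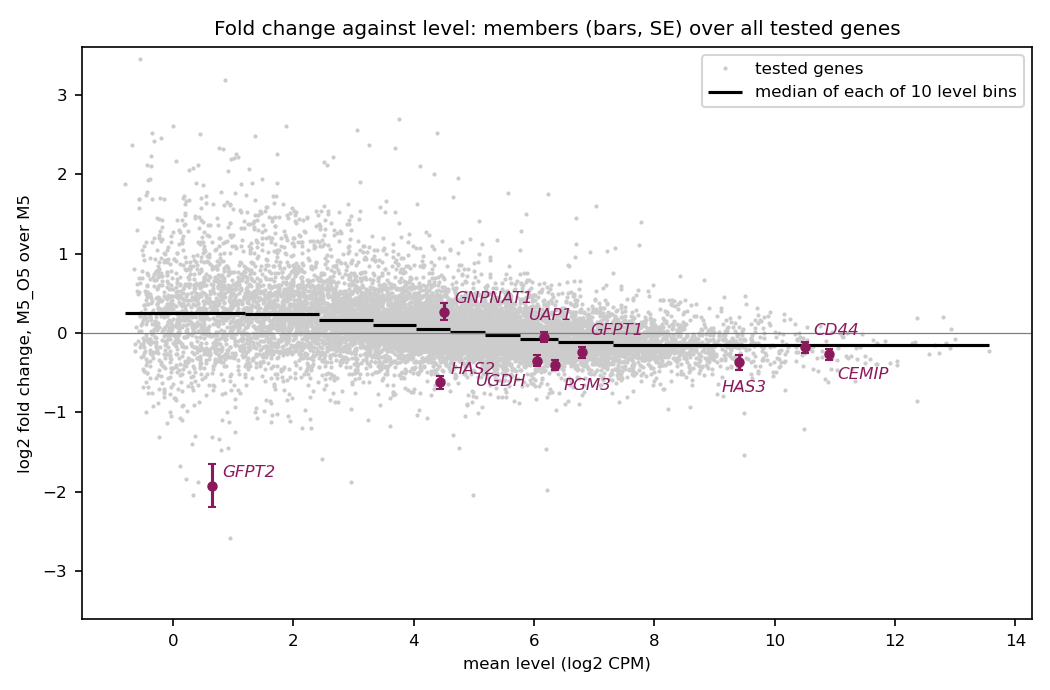
Log2 fold change of M5_O5 over M5 (y axis) against mean level in log2 CPM (x axis) for the 12434 tested genes in grey, with the 10 genes in purple (bars, SE) and the median of each of 10 level bins as black lines. The lines fall from 0.25 to -0.15, CD44 sits on them, and GFPT2 and HAS2 sit below.

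The scale also mattered. Under scaling by library size alone the median log2 fold change of all tested genes was 0.13, and on log2(TPM + 1) it was 0.12. On the library-size scale the log2 fold change was -0.07 for CD44 and -0.15 for CEMIP, against -0.29 for PGM3 and -0.50 for HAS2. On log2(TPM + 1), 5 genes (CEMIP, GFPT2, HAS2, HAS3 and PGM3) were lower at the adjusted p, again as a description.

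The mix of transcripts within a gene was read from the estimated count of each RefSeq transcript, which depends on how the reads shared between transcripts were divided. CD44 is spliced with or without a run of variable exons on chromosome 11. The standard form NM_001001391, which holds 0 variable exons, took only 0.714% ± 0.125 of CD44 counts in M5_O5 and 0.868% ± 0.121 in M5 (SD, n = 4 each). The largest shares of counts belonged to the predicted form XM_005253235 (33.1% and 32.5%), whose exons were not read here. Next came NM_001001389, which has 8 variable exons (21.1% and 19.9%). Counts favour long transcripts, and in TPM the order differed. By mean TPM share, XM_005253235 took 26.1% and 26.8%, XM_011520489 took 23.4% and 18.9%, and NM_001001389 took 16.7% and 16.4%. XM_011520489 is another predicted form, at 7.42% and 5.72% of counts, and its exons were not read either. The sequences that tell the standard from the longest form are the 30 bases across the junction, 15 on each side, given from GENCODE v29 on the plus strand with the side that follows the junction in capitals.
Standard form, chr11:35190051-35190065 joined to chr11:35214852-35214866: gaatccctgctaccaGAGACCAAGACACAT
Longest form, chr11:35190051-35190065 joined to chr11:35196746-35196760: gaatccctgctaccaCTTTGATGAGCACTA

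The longest form, NM_000610, carries 9 variable exons of 1143 bases in all. It took 1.13%, 2.58%, 2% and 2.96% of CD44 counts in M5_O5 and 3.27%, 4.68%, 4.06% and 4.02% in M5. Its share was lower in every M5_O5 library than in any M5 library. The predicted form XM_006718388 went the other way, at 4.47%, 2.45%, 2.56% and 2.46% in M5_O5 and 1.78%, 1.14%, 1.65% and 1.38% in M5. Its effective length was nearly that of NM_000610, at 52.4 against 52.7 counts per TPM. Together these forms took 5.15% ± 0.456 in M5_O5 and 5.49% ± 0.347 in M5 (SD, n = 4 each), with overlapping ranges, so a loss of the longest form cannot be told apart from another division of reads between the pair. NM_001001390, with 3 variable exons, took 2.74% ± 0.163 in M5_O5 and 2.1% ± 0.383 in M5, and its ranges overlapped. XM_005253238 took 9.59% to 10.1% in M5_O5 and 10.5% to 11.7% in M5, apart in counts but not in TPM. Over those of the 10 genes with several transcripts, 7 of 58 transcript shares were apart in counts and 5 in TPM. They were compared without a test, and shares within a gene depend on each other. How often shares lay apart over the whole table was not computed, so nothing is read from this count.

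**Figure D4:**
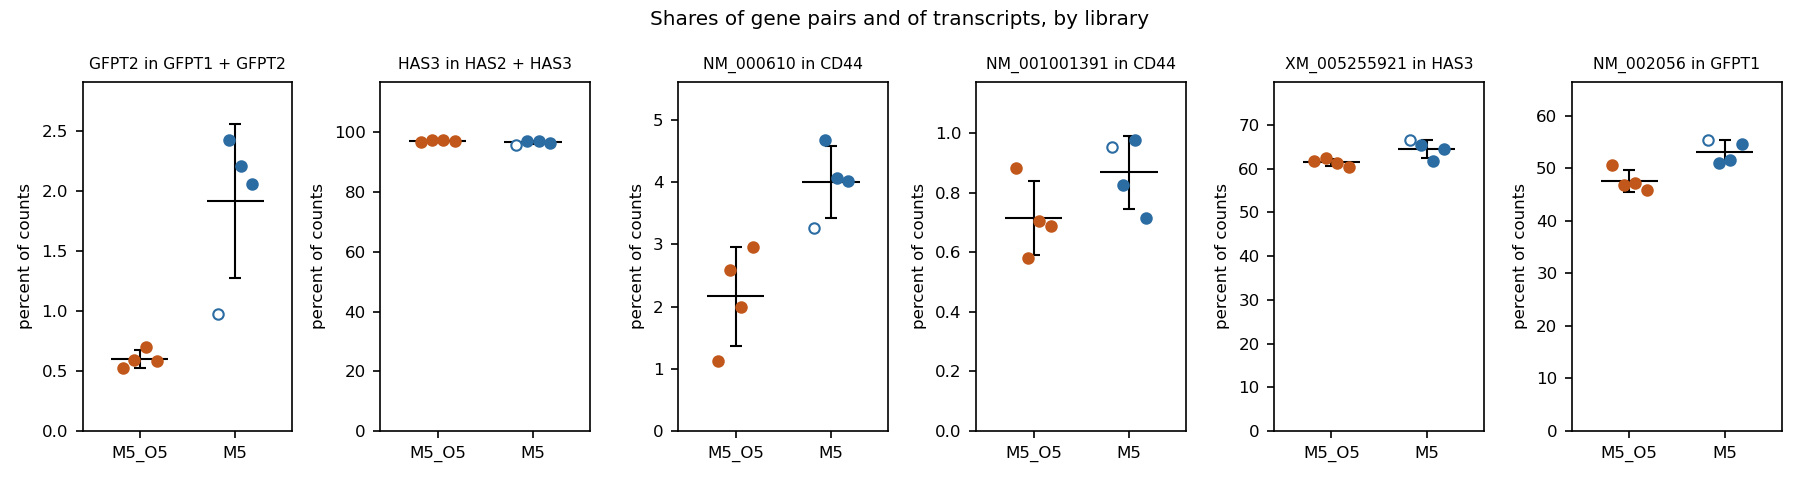
Percent of counts (y axis, from 0) that 1 gene takes in a pair of paralogs or 1 transcript takes in its gene, in the 4 M5_O5 and 4 M5 libraries. Points are libraries, the open point is M5 replicate 1, and lines with bars are means with SD. Of the 6 shares drawn, the groups are apart for GFPT2, for NM_000610 of CD44 and for NM_002056 of GFPT1.

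In GFPT1, the transcript NM_002056 took 45.9% to 50.6% of counts in M5_O5 and 50.9% to 55.4% in M5. Its shares were just apart in counts and overlapping in TPM. XM_017003802 took most of the other counts, with means of 51.1% in M5_O5 and 44.9% in M5. By TPM it was the main form, at 75.5% and 70.6% against 23.7% and 28.2% for NM_002056. In HAS3, XM_005255921 took 61.4% ± 0.854 in M5_O5 and 64.5% ± 2.09 in M5, with overlapping ranges. CEMIP was mostly NM_018689 (89.3% and 90.9%), and its other form NM_001293304 took 8.83% to 11.4% in M5_O5 and 6.85% to 8.75% in M5, just apart. Single transcripts also led UGDH and GNPNAT1, with UGDH mostly NM_003359 (98.6% and 98.5%) and GNPNAT1 mostly NM_198066 (94.2% and 95.3%). PGM3 counts were split between NM_015599 (46.9% and 50.9%) and NM_001199919 (44.9% and 42%), and UAP1 was led by NM_001324116 (50.6% and 50.1%), all with overlapping ranges. By TPM NM_001199919 led PGM3, at 72.7% and 70.4% against 23.1% and 25.8% for NM_015599.

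The genes around these 10 passed the test in both directions at shares close to those of all genes. Of 93 genes on 5 lists of neighbouring steps, 70 were tested, and 16 were higher and 16 lower in M5_O5 at the adjusted p (edgeR quasi-likelihood test). That is 22.9% each way, against 19.5% higher and 17.6% lower over all tested genes. Of these, 3 were called, all higher, where 2.87% of all tested genes were called higher and 0.33% lower. The count of lower genes depended on the scale, at 7 under scaling by library size alone and 4 on log2(TPM + 1), while 21 and 18 were higher.

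Genes that supply or spend hexosamines moved both ways. Of 16 tested, 5 were higher, 4 lower and 7 did not pass, with a median log2 fold change of 0.01. The higher genes with the smallest adjusted p were GNE, which starts sialic acid synthesis, at 0.38 (SE 0.08, adjusted p = 0.00206), CMAS, which activates sialic acid, at 0.38 (SE 0.08, adjusted p = 0.00273), and NANS, the sialic acid phosphate synthase, at 0.30 (SE 0.06, adjusted p = 0.00108). NANP, the phosphatase of the same route, was at 0.03 (SE 0.07, adjusted p = 0.775) and is named after its value was seen. Both enzymes of the O-GlcNAc cycle were lower, with OGA, which removes the sugar, at -0.29 (SE 0.05, adjusted p = 0.00064) and OGT, which adds it, at -0.24 (SE 0.05, adjusted p = 0.00251). OGA was at 182, 184, 181 and 198 CPM in M5_O5 and at 221, 225, 232 and 234 CPM in M5, without overlap in CPM but with overlap in TPM. With the level trend removed neither passed, OGA at -0.16 (adjusted p = 0.0828) and OGT at -0.10 (adjusted p = 0.227), and OGT was at -0.13 (adjusted p = 0.0615) under scaling by library size alone. HK2, one of the hexokinases that feed glucose into these routes, was at -0.26 (SE 0.06, adjusted p = 0.00346) and at -0.13 (adjusted p = 0.0738) on log2(TPM + 1).

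On the list of genes around UDP-glucuronate, which includes transporters and a user of that sugar and leaves out UGDH, 5 genes did not pass. Of 6 genes tested, 0 were higher and 1 lower, the nucleotide sugar transporter gene SLC35D2 at -0.28 (SE 0.05, adjusted p = 0.00126), which gave -0.16 (adjusted p = 0.0878) on log2(TPM + 1). The median log2 fold change was 0.03.

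Genes of hyaluronan turnover and binding included 2 of the 3 called genes, too few to read as a result about this list. Of 12 tested, 6 were higher and 1 lower, with a median of 0.21. HEXA, which encodes a subunit of a lysosomal hexosaminidase, was higher by 0.42 (SE 0.06, adjusted p = 0.000126). HEXA was at 110, 126, 126 and 121 CPM in M5_O5 and at 85.5, 96, 88.2 and 90.2 CPM in M5, and the groups did not overlap. Of the hyaluronidase genes, HYAL1 at -0.06 (SE 0.11, adjusted p = 0.706) and HYAL2 at 0.11 (SE 0.10, adjusted p = 0.444) did not pass. HYAL3, named after its value was seen, was higher by 0.55 (SE 0.16, adjusted p = 0.0164) from 50 to 127 counts per library, but it was at 0.40 (adjusted p = 0.0603) without M5_O5 replicate 3 and at 0.35 (adjusted p = 0.175) with the level trend removed. CEMIP2, a relative of CEMIP, was at -0.14 (SE 0.05, adjusted p = 0.044), and it was at -0.02 (adjusted p = 0.782) under scaling by library size alone.

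HMMR, a hyaluronan receptor that also acts at the mitotic spindle, was called higher at 1.07 (SE 0.23, adjusted p = 0.00245). It was at 7.38, 5.8, 6.28 and 7.01 CPM in M5_O5 and at 5.54, 2.81, 2.3 and 2.12 CPM in M5. M5 replicate 1 lay close to the M5_O5 libraries, and without it the log2 fold change was 1.46 (adjusted p = 3.04e-06). The 2-fold call was lost without M5 replicate 3 (0.94) or M5 replicate 4 (0.91), on log2(TPM + 1) (0.89) and with the level trend removed (0.88, adjusted p = 0.05). The 10 genes of the G2/M list moved alongside, all 10 higher in M5_O5 with a median of 1.11, and their summed level was 107 to 124 TPM in M5_O5, 84.2 TPM in M5 replicate 1 and 40.6 to 42.5 TPM in the other M5 libraries. Their part in the HMMR difference was not tested. ITIH4, a heavy chain of the inter-alpha-trypsin inhibitor family, was called at 1.27 (SE 0.28, adjusted p = 0.00313) from only 4 to 30 counts per library. That call was also lost on log2(TPM + 1), at 0.45, and with the level trend removed, at 1.05 (adjusted p = 0.0551).

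**Figure D5:**
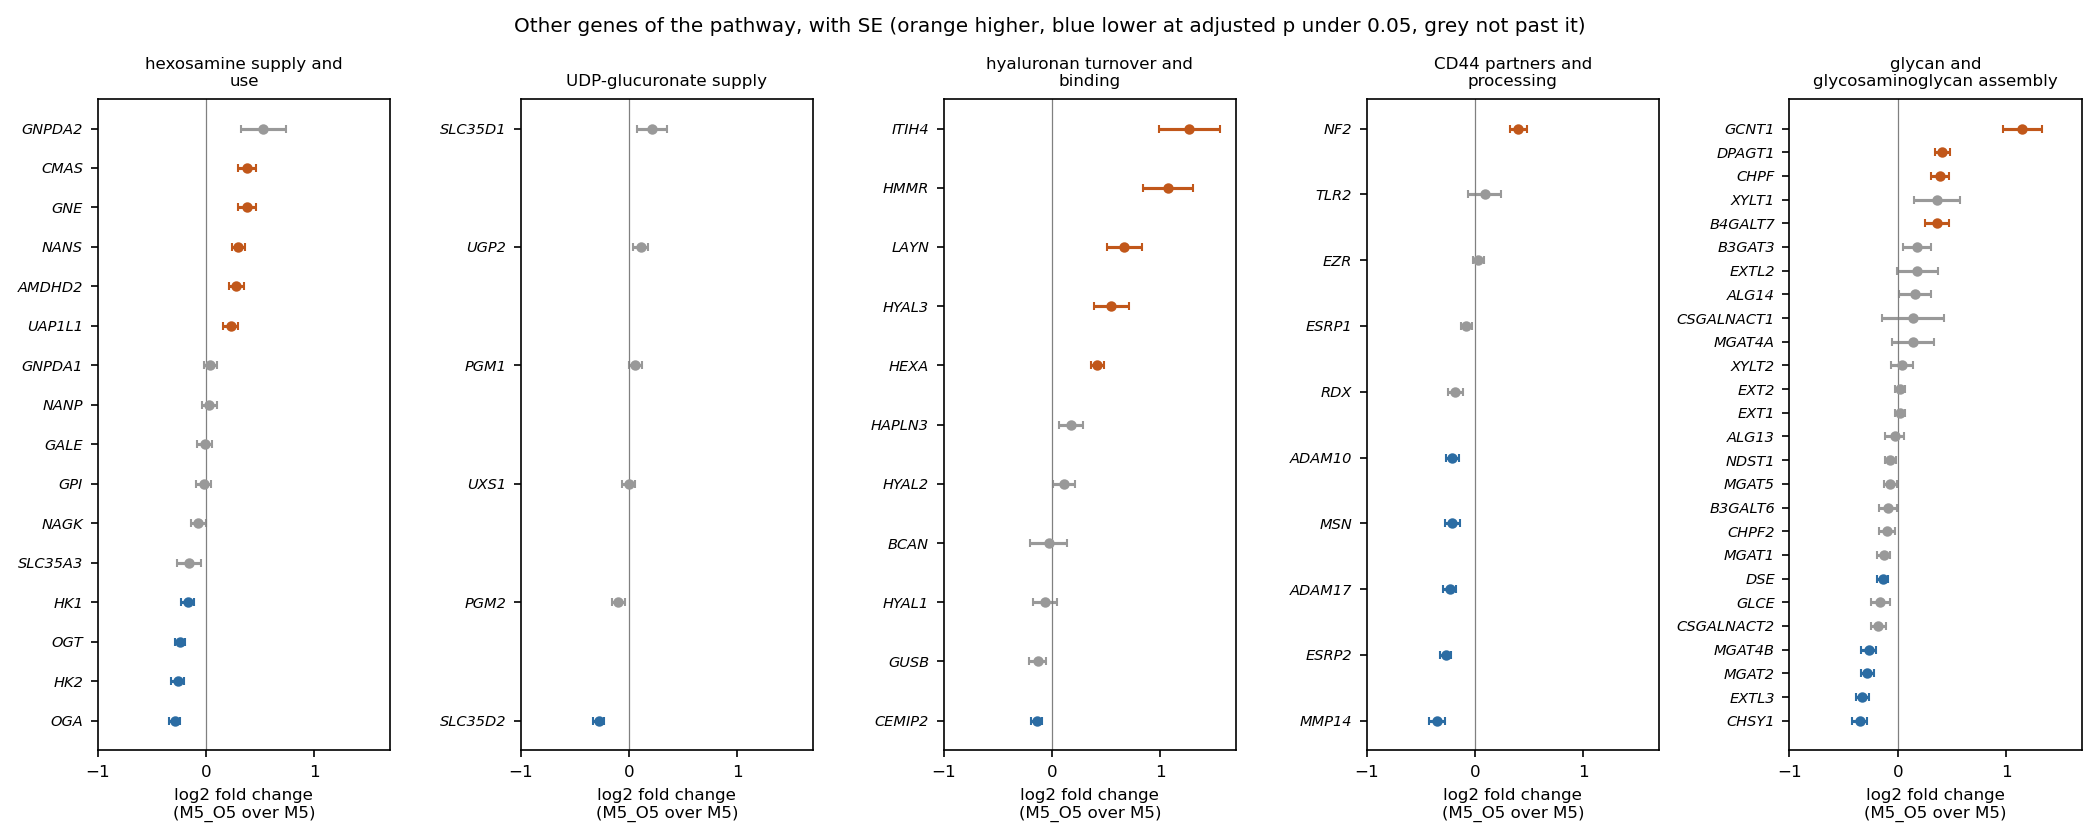
Log2 fold change of M5_O5 over M5 (x axis, bars SE) of 69 of the 70 tested genes on 5 lists of neighbouring steps. Orange genes are higher (15 drawn) and blue genes lower (16 drawn) at an adjusted p under 0.05, and grey genes did not pass. HMMR, ITIH4 and GCNT1 stand out at 1.07, 1.27 and 1.15.

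Genes whose products bind, splice or cut CD44 moved both ways. Of 10 tested, 1 was higher and 5 lower, with a median of -0.20. NF2, encoding merlin, which binds the CD44 tail, was higher by 0.40 (SE 0.08, adjusted p = 0.00207). MMP14 and ADAM17, proteases that cleave CD44 at the cell surface, were at -0.35 (SE 0.07, adjusted p = 0.00122) and -0.23 (SE 0.06, adjusted p = 0.00511). MMP14 was at 1010, 1036, 1045 and 971 CPM in M5_O5 and at 1138, 1401, 1279 and 1347 CPM in M5, without overlap. ESRP2, a splicing regulator that promotes the inclusion of variable CD44 exons, was at -0.27 (SE 0.05, adjusted p = 0.0014). The ADAM17 and ESRP2 differences were at -0.11 (adjusted p = 0.275) and -0.13 (adjusted p = 0.103) on log2(TPM + 1). MMP14 was at -0.16 (adjusted p = 0.145) with the level trend removed.

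Other users of the same sugar donors were mixed. Of 26 genes of glycan and glycosaminoglycan assembly tested, 4 were higher, 5 lower and 17 did not pass, with a median of -0.00. GCNT1, which branches O-glycans, was called higher at 1.15 (SE 0.18, adjusted p = 0.000229), from 5.58 to 6.18 CPM in M5_O5 against 1.93 to 3.94 CPM in M5, where the highest M5 value was again replicate 1. It fell short of 2-fold on log2(TPM + 1), at 0.68, and with the level trend removed, at 0.95 (adjusted p = 0.0215). DPAGT1, the first enzyme of N-glycan precursor assembly, was at 0.41 (SE 0.07, adjusted p = 0.000715) and CHPF, a chondroitin polymerizing factor, at 0.39 (SE 0.08, adjusted p = 0.00193). In the other direction, CHSY1, a chondroitin synthase, was at -0.35 (SE 0.07, adjusted p = 0.00118), EXTL3, which starts heparan sulfate chains, at -0.33 (SE 0.06, adjusted p = 0.00125), and MGAT2, an N-glycan branching enzyme, at -0.28 (SE 0.06, adjusted p = 0.00241). On log2(TPM + 1), CHSY1 was at -0.21 (adjusted p = 0.133) and MGAT2 at -0.15 (adjusted p = 0.177), and EXTL3 was at -0.23 (adjusted p = 0.0583) with the level trend removed.

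For the 3 genes with the widest difference, the genes of most similar pattern were found by Pearson's r of log2(CPM + 1) over the 8 libraries among 11956 genes, as a description. They were FAM83A (0.996), ABTB2 (0.994) and BMP6 (0.992) for GFPT2, NACC2 (0.991), AGO2 (0.990) and PMEPA1 (0.989) for HAS2, and CDKN2B (0.995), DDX17 (0.992) and ITGB6 (0.990) for PGM3. Each of these 9 genes also had a lower mean in M5_O5, and the 8 points share the grouping of the libraries. BMP6, a secreted growth factor, was the nearest to GFPT2 in size, at 2.75 CPM in M5_O5 and 8.26 CPM in M5.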

How the data were processed

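Sequencing libraries of HaCaT cells were made from total RNA and sequenced by BGI. The submitters' processing notes list HISAT2 2.1.0, Bowtie2 2.2.5 and RSEM 1.2.8 with the mouse build mm10, and the methods name HISAT2 and StringTie. The identifiers are human (17072 of 17131 matched a human symbol), and the human build is not given in the sources used here, so no coordinate comes from the files. The authors deposited an estimated count per RefSeq transcript, not normalized, together with TPM, which scales each library to a fixed sum, and FPKM, which was not used here. The authors' columns of group means were not used.

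Transcript counts were summed per Entrez gene and rounded. The filter filterByExpr kept 12434 genes, which were scaled by TMM and compared, M5_O5 against M5, with the quasi-likelihood test of edgeR 4.0.16 (R 4.3.3) and Benjamini-Hochberg adjustment over all of them. The biological coefficient of variation was 7.42%. Alternatives used DESeq2 1.42.0, limma 3.58.1 on log2(TPM + 1) and log2(TPM + 0.1), other scalings and filters, a replicate block and the omission of each library. Removal of the trend with level was added after the data were seen. The test was checked on simulated counts in which 200 of 12434 genes were changed by a log2 fold of 1.5. It called 199 of them and 0 of the unchanged genes. Smaller changes and a trend with level were not simulated. Labels do not say that libraries came from separate cultures, so p-values measure only the spread between these libraries. Replicates of a group differed by more than sampling noise.

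The 10 genes and all lists were chosen with earlier results of these data known. Named besides them were every called gene of the 5 neighbouring lists, up to 3 genes per list and direction with the smallest adjusted p, HMMR, HAS1, CEMIP2, HYAL1, HYAL2, OGT and OGA in any case, HYAL3 and NANP after their values were seen, and the 3 genes most similar to each of the 3 widest differences among genes of at least 1 CPM. The result of 1 gene that this rule names is not reported here, and it stays in the counts. Promoter and junction sequences came from RefSeq (GRCh38.p14) and GENCODE v29.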

Additional observations from a re-analysis of the deposited data

Results flagged for a closer look

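In groups of 4 libraries, a library was marked when its gap to the nearest other library was too large a part of the group's range by Dixon's rule for 4 values. Of 81 groups looked at, 2 were marked, and chance alone marks about 1 in 20, or 4.05 here. Both were M5 replicate 1. CHPF was at 72 CPM there and at 82 to 83.3 CPM in the other M5 libraries, and GNE was at 27.6 CPM there and at 22.6 to 23.2 CPM in the others. Without M5 replicate 1 the log2 fold change was 0.34 (adjusted p = 0.0024) for CHPF and 0.45 (adjusted p = 0.000138) for GNE in the edgeR test.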

How the results depend on the processing

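The 10 genes were described under 18 alternatives. Since they were picked on this contrast, their counts past the adjusted p carry no test. The sign of the log2 fold change was kept in all 18 for 8 genes, in 15 for CD44 and in 14 for UAP1. Of the 10, 8 were lower at the adjusted p, 5 on log2(TPM + 1) and 5 on log2(TPM + 0.1), 4 with the level trend removed, and 6 to 8 when a library was left out. GNPNAT1 passed as higher under library size alone, with the replicate block, and without M5_O5 replicate 3 or M5 replicate 1.

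Of all tested genes, 357 were called higher in M5_O5, and 144 on log2(TPM + 1) and 207 with the level trend removed. Those called lower numbered 41, with 25 under library size alone, 71 without a filter on low counts, 8 on log2(TPM + 1) and 18 on log2(TPM + 0.1). With 1 library left out, 334 to 465 were called higher, the most without M5 replicate 1, and 41 to 52 lower. Among the 70 neighbouring genes, the 16 lower became 7 under library size alone, 4 on log2(TPM + 1), 3 on log2(TPM + 0.1) and 2 with the level trend removed, and 12 to 17 with 1 library left out, where 15 to 20 were higher. Computed from TPM, the GFPT2 share of GFPT1 and GFPT2 was 0.906% in M5_O5 and 3.05% in M5. Named neighbouring genes kept their side of the threshold in 427 values and lost the threshold in 40, and none past it changed direction.

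With the replicate block, 359 were called higher and 41 lower, and 17 neighbouring genes were higher and 17 lower. Deviations of same-numbered libraries correlated at 0.28, 0.17, 0.03 and -0.01, and 2 of 4 M5_O5 libraries correlated best with their own number, so the numbers were not taken as pairing.

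GFPT2 rests on 10 to 42 counts per library and HAS1 on 0 to 2, so their levels are imprecise. The conflict between titles and entered treatment means that no direction is given for the drug. The cause of the trend with level was not tested.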
